A study of Homo sapiens with 24 samples.

Results

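The 10 genes described here code for the proteins that set the first commitment step of the cell cycle: the D-type cyclins CCND1, CCND2 and CCND3, their kinases CDK4 and CDK6, and the CDK inhibitors CDKN1B, CDKN1C, CDKN2A, CDKN2B and CDKN2C. They were chosen by gene name on the arrays and make up 10 of the 20446 genes whose names matched RefSeq. They were read by 12 probes of the 57355 named or unnamed non-control probes, spotted 39 times on one array design and 30 times on the other. All 10 genes were present on both designs.

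D-type cyclins are made when a cell receives growth signals, and they activate CDK4 or CDK6. The active pair phosphorylates the retinoblastoma protein RB and its relatives RBL1 and RBL2, which releases E2F transcription factors and so allows cyclin E, CDK2 and cyclin A to take over. The INK4 inhibitors (CDKN2A, CDKN2B, CDKN2C) bind CDK4 and CDK6 and keep them from their cyclins, whereas the CIP/KIP inhibitors (CDKN1B, CDKN1C and the related CDKN1A) act on several cyclin-CDK pairs. CDKN2A also codes, from another first exon, for ARF, which acts on the p53 pathway. The pathway is altered in many carcinomas, by loss of the INK4 genes or gain of a D cyclin.

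The study hybridized RNA of treated human cancer cell lines against RNA of the same line under a control condition on 24 two-colour arrays, with 1 array for each line and treatment. Treated RNA carried Cy5 and control RNA carried Cy3 on all of them, so a positive log2 ratio is a higher signal in the treated cells. The lines were PC3, DU145 and LNCap (prostate cancer), A498 and 786O (renal cell cancer), and FaDu and SAS (head and neck squamous cell cancer). Genistein, a soy isoflavone, was given to PC3 and DU145, and the chemokine CXCL10 to 786O for 12 h or 24 h. The controls of both were untreated cells by the labels, while the study's methods name the vehicle DMSO for genistein.

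Wogonin, a plant flavone, was given to SAS and FaDu against DMSO. Small interfering RNAs against CAV2 (A498, 786O), GOLM1 (DU145, PC3) and LAMB3 (FaDu, SAS) were set against control siRNA. Of the microRNAs, miR-145 was transfected into PC3, DU145 and LNCap, miR-143 into DU145 and PC3, miR-27b into PC3, 786O and A498, miR-23b and miR-24 into PC3, miR-29a into SAS and miR-375 into FaDu, each against a control miRNA. Each model is a single established line grown as a culture, so a lower transcript level in every cell and fewer cells that make the transcript cannot be told apart. The labels do not say that the arrays of one line came from separate cultures.

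The 7 microRNAs are printed because miR-24 and miR-29a gave the highest and the lowest CDK6 ratio of the series, and because a transfected microRNA acts through its seed. The labels do not give the arm, so the arm that RefSeq lists as the mature product of that name in common use is shown, 5′ to 3′, with the seed (bases 2 to 8) in capitals.
miR-145-5p: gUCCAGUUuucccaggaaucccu
miR-143-3p: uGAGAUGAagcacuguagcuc
miR-23b-3p: aUCACAUUgccagggauuaccac
miR-24-3p: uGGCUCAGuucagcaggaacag
miR-27b-3p: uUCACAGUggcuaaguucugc
miR-29a-3p: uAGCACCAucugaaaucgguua
miR-375-3p: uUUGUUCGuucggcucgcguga
The 7 seeds were all different. On GRCh38.p14, the mature miR-23b, miR-27b and miR-24 lay close together on the plus strand, at chr9:95085265-95085287, chr9:95085505-95085525 and chr9:95086064-95086085, and a further copy of miR-24 lay at chr19:13836289-13836310 on the minus strand. The mature miR-29a lay at chr7:130876748-130876769, miR-375 at chr2:219001648-219001669, miR-143 at chr5:149428978-149428998 and miR-145 at chr5:149430661-149430683.

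No spot was saturated, but the share of spots well above background differed by slide and dye. In Cy5 that share was 54.2 to 60.5% on slide 3, against 63.9 to 68.9% on slides 1 and 2. In Cy3 it ran from 53.2 to 67.6% over all arrays. It was higher in Cy5 than in Cy3 on every array, for instance 66.3% against 55.0% for wogonin in FaDu. The part of these differences in the comparisons with slide 3 was not tested. The siRNA targets were lower on their own arrays, CAV2 at -3.80 in A498 and -3.20 in 786O, GOLM1 at -3.02 in DU145 and -4.15 in PC3, and LAMB3 at -2.50 in FaDu and -0.89 in SAS. The prostate markers HOXB13, KLK2, KLK3 and TMPRSS2 were detected in LNCap, all 6 squamous markers in FaDu and 5 of 6 renal markers in A498 and in 786O. HOXB13 was detected on no array of DU145, whereas KLK2 and KLK3 were detected on all of them. KLK2 was also detected on all arrays of A498 and 786O, and TMPRSS2 on all of A498. Of the squamous markers, 4 of 6 were detected on every SAS array, and KRT14 and KRT6A on every DU145 array. Detection alone thus did not set the lines apart. The array of miR-145 in LNCap stood apart, with log2 ratios of 4.21 for LAMB3 and 1.65 for VIM, whose control signals were -2.66 and -0.40 (log2, relative to the array's 75th percentile), while those prostate markers lay between -0.52 and -0.24. The PC3 controls of slide 3 also differed from those of slides 1 and 2, with VIM at 2.39 and 2.99 against 6.04 to 6.77 and the epithelial cadherin CDH1 at 4.13 and 3.58 against -2.34 to -0.56 (log2 control signal minus the 75th percentile of its array). Of the squamous keratins, KRT6A was at 1.69 and 2.33 there and KRT14 at 0.19 and 0.17, whereas on slides 1 and 2 neither was well above background in the PC3 controls. The SAS control of miR-29a had the keratin KRT14 at 2.14 against 4.73 and 5.75 in the other SAS controls, and TP63 and DSC3 were not well above background there.

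Across the 24 arrays, 213 of the 240 gene-by-array values were measured, that is, detected above background in the control channel, the treated channel or both. Of these, 27 (12.7%) lay below -0.5 and 37 (17.4%) above 0.5, against 11.1% and 12.9% of the values of all genes. With 1 array per line and treatment, these counts describe arrays and carry no test. A limit of 1.0 left 10 values lower and 13 higher, against 3.86% and 4.76% over all genes. Among the 210 values detected in both channels, 26 lay below -0.5 and 36 above 0.5, and 10 and 12 passed the limit of 1.0. The array software's error of a log2 ratio was 0.20 to 0.44 for values detected in both channels, with a median of 0.21, and the 10 spots of the CCND1 probe differed on an array by an SD of only 0.024 to 0.052.

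**Figure D1:**
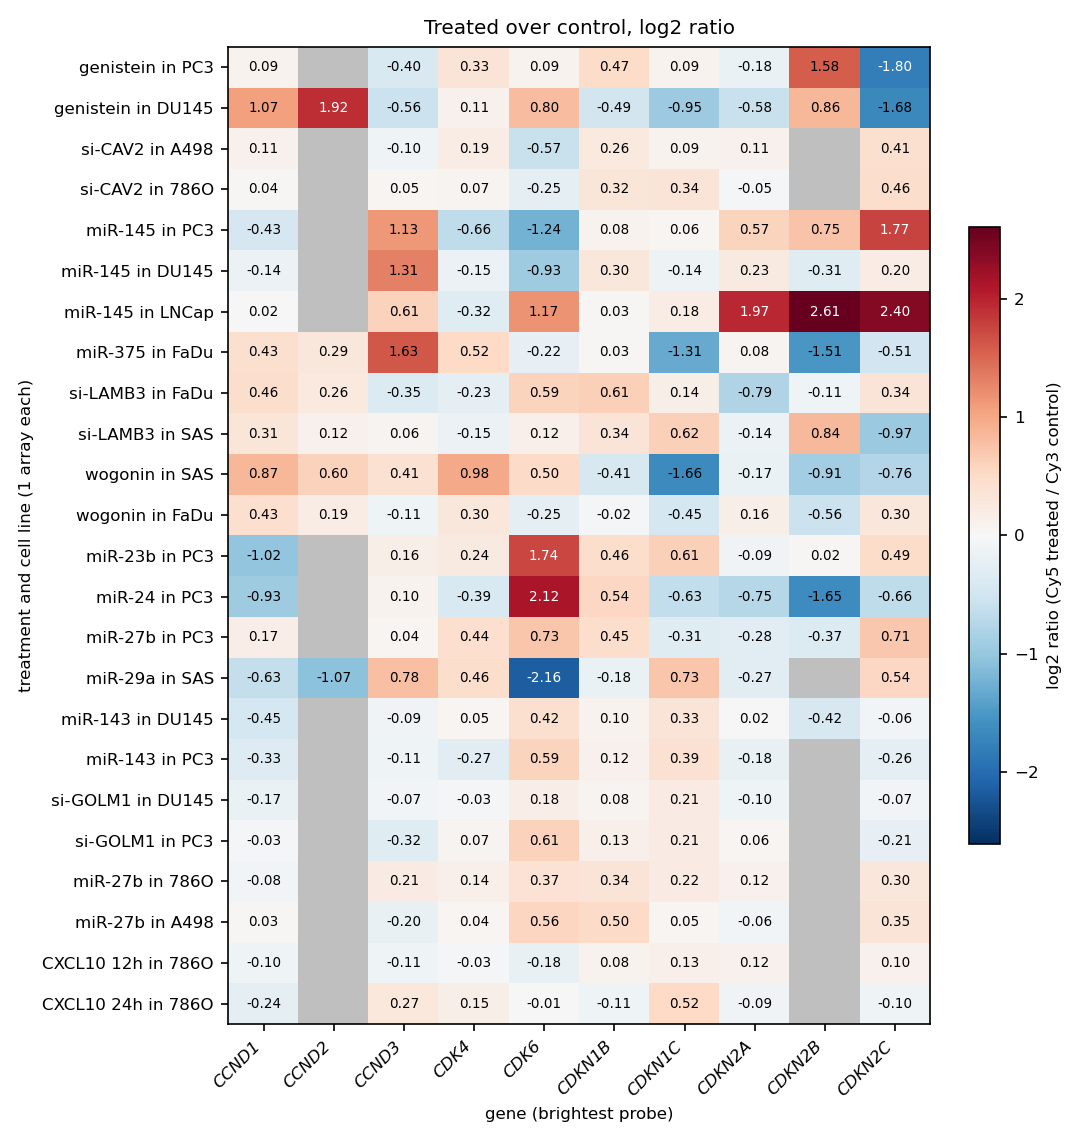
Log2 ratio of treated over control signal for the 10 genes (columns, brightest probe of each) on the 24 arrays (rows); red is higher and blue lower in treated cells, and grey marks values not well above background in either channel. CDK6 ranged from -2.16 (miR-29a in SAS) to 2.12 (miR-24 in PC3), whereas CDKN1B stayed between -0.49 and 0.61 and CCND2 was measured on 7 arrays only.

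Among the D cyclins, CCND1, the family member most often amplified in carcinomas, was measured on all 24 arrays by a probe at chr11:69468233-69468292 (hg19). Its log2 ratio ran from -1.02 through a median of -0.01 to 1.07. CCND1 was lower than -0.5 on 3 arrays, all of them microRNA transfections: miR-23b in PC3 (-1.02, software error 0.22, 2.03-fold), miR-24 in PC3 (-0.93, 0.22, 1.91-fold) and miR-29a in SAS (-0.63, 0.21, 1.55-fold). On the array of miR-23b its 10 spots had an SD of 0.039, and on that of miR-24 an SD of 0.024, so spot-to-spot error was small beside either value. In PC3 given miR-27b, the third microRNA whose control was counted as the same RNA, CCND1 was at 0.17. CCND1 was higher than 0.5 on 2 arrays, of genistein in DU145 (1.07) and wogonin in SAS (0.87), while the second line of each treatment gave 0.09 in PC3 and 0.43 in FaDu.

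CCND2, a D cyclin with restricted expression, was measured on 7 arrays, of which 6 were of the squamous lines FaDu and SAS. Its probe lay at chr12:4414040-4414099 (hg19). In SAS, CCND2 was at -1.07 with miR-29a (software error 0.23, 2.10-fold lower), at 0.60 with wogonin and at 0.12 with si-LAMB3. In FaDu it was at 0.29 with miR-375, 0.26 with si-LAMB3 and 0.19 with wogonin, all inside the limit. The miR-29a value was the only one below -0.5, and the SAS control on that array already had CCND2 at -0.12 (log2 control signal minus 75th percentile) against 2.13 and 2.23 in the other SAS controls. On that array the 6 squamous markers had log2 ratios of -2.33 to -0.11, and their part in the CCND2 value was not tested. In DU145 given genistein CCND2 was detected in the treated channel alone and was at least 1.13-fold higher, a bound inside the limit.

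CCND3, the D cyclin prominent in lymphoid cells, moved on more arrays, with 5 values above 0.5 and 1 below -0.5 by a probe at chr6:41903193-41903252 (hg19). All 3 miR-145 arrays were among the higher ones, at 1.13 in PC3, 1.31 in DU145 and 0.61 in LNCap. The highest value was that of miR-375 in FaDu (1.63, software error 0.25, 3.09-fold), and miR-29a in SAS gave 0.78. The single lower value was genistein in DU145 at -0.56, with PC3 at -0.40. CCND3 thus stood above CCND1 on each of the 3 miR-145 arrays and on the miR-375 and miR-29a arrays, where CCND1 was at -0.43, -0.14, 0.02, 0.43 and -0.63.

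Of the kinases, CDK4 varied little. Its probe at chr12:58142263-58142322 (hg19) gave log2 ratios from -0.66 to 0.98 with a median of 0.07, with 1 value below -0.5 (miR-145 in PC3, -0.66) and 2 above 0.5 (wogonin in SAS, 0.98, and miR-375 in FaDu, 0.52). CDK6, read at chr7:92234443-92234502 (hg19), covered the widest range of the group, with CDKN2B and CDKN2C nearly as wide, and it passed the limit on 13 arrays, 4 lower and 9 higher. Its lowest value was miR-29a in SAS (-2.16, software error 0.29, 4.46-fold lower), where its 2 spots had an SD of 0.044. Its highest values were miR-24 (2.12, 0.28, 4.34-fold) and miR-23b (1.74, 0.26, 3.35-fold) in PC3.

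The third of these PC3 arrays, miR-27b, had CDK6 at 0.73. The 3 were counted as sharing 1 control RNA from the likeness of their control signals, which the labels do not state. The control signal of CDK6 was 1.26, 1.25 and 1.29, and the ratios would then not be independent of each other. CDK6 was also higher, by 0.59 and 0.61, on the PC3 arrays of miR-143 and si-GOLM1, so 5 of the 7 PC3 arrays lay above 0.5 and the others were genistein (0.09) and miR-145 (-1.24). The arrays of miR-143 and si-GOLM1 are those of slide 3, whose controls differed in VIM, CDH1 and keratins, and without them 3 of 5 lay above 0.5. With miR-145, CDK6 was at -1.24 in PC3 and -0.93 in DU145 but at 1.17 in LNCap, where the control signal of CDK6 was -3.93, the lowest of all controls. On the 8 arrays of slide 3 CDK6 lay between -0.18 and 0.61. In A498 it was at -0.57 with si-CAV2 and 0.56 with miR-27b.

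**Figure D2:**
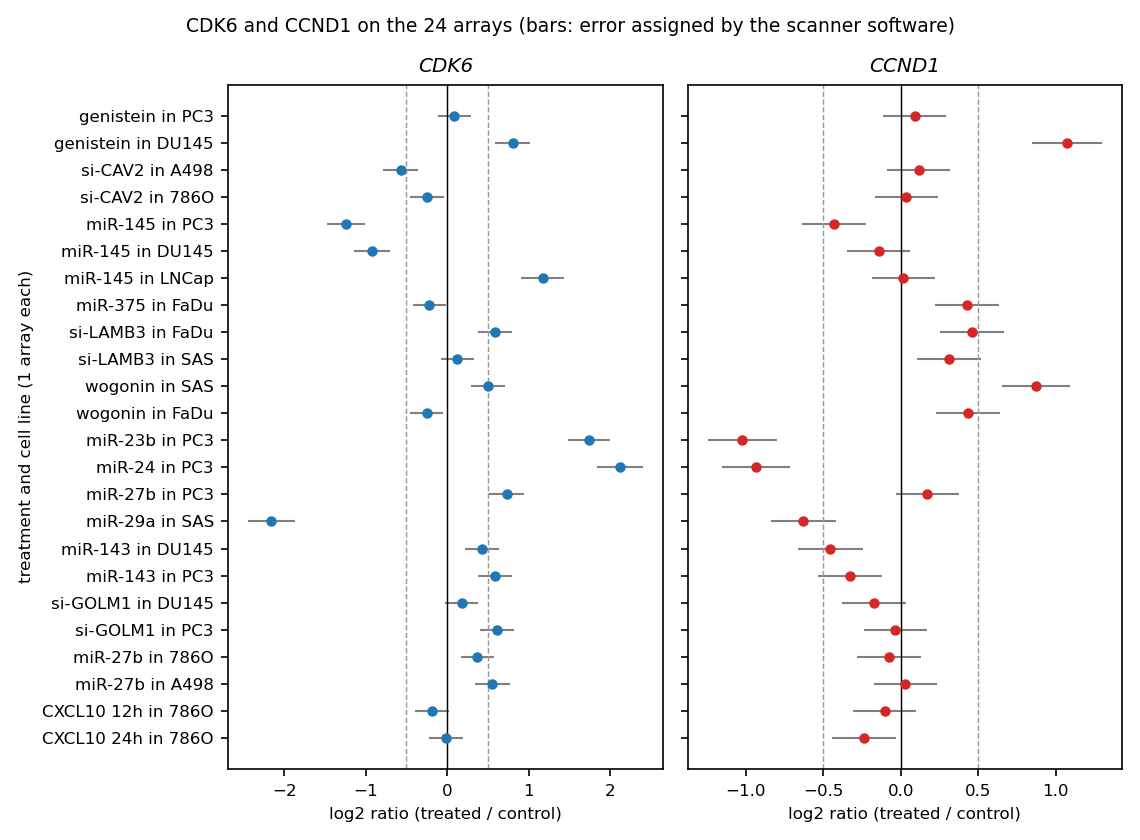
Log2 ratio of CDK6 and of CCND1 on each of the 24 arrays, with bars for the software's error and dashed lines at -0.5 and 0.5. In PC3 given miR-23b or miR-24, CDK6 lay at 1.74 and 2.12 and CCND1 at -1.02 and -0.93, whereas in SAS given miR-29a both were lower, at -2.16 and -0.63.

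The CIP/KIP inhibitor CDKN1B (p27) was the steadiest gene of the group. Its brighter probe, at chr12:12874940-12874999 (hg19) with 10 spots, gave -0.49 to 0.61 with a median of 0.12, and only si-LAMB3 in FaDu (0.61) and miR-24 in PC3 (0.54) passed 0.5. Its other probe, at chr12:12871119-12871178, had 1 spot per array and a median absolute difference of 0.17 from the first over 24 arrays. Both probes were higher with miR-24, at 0.54 and 0.75, and both were lower with genistein in DU145, at -0.49 and -0.88. They differed most in SAS given miR-29a, at -0.18 and 0.30, and had the same sign on 17 of 24 arrays.

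CDKN1C (p57), an imprinted inhibitor linked to cell cycle exit, was read at chr11:2904903-2904962 (hg19) and passed the limit on 8 arrays, 4 lower and 4 higher. It was lowest with wogonin in SAS (-1.66, software error 0.26, 3.15-fold), with -0.45 in FaDu, and low with miR-375 in FaDu (-1.31, 2.49-fold) and genistein in DU145 (-0.95), where PC3 gave 0.09. With the 3 microRNAs counted as sharing a PC3 control it was at 0.61 (miR-23b), -0.63 (miR-24) and -0.31 (miR-27b). Its highest value was miR-29a in SAS, 0.73. CXCL10 gave 0.13 at 12 h and 0.52 at 24 h, the only member value past 0.5 on those arrays.

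The INK4 inhibitor CDKN2A was read by a probe at chr9:21968039-21968098 and another at chr9:21970901-21970960 (hg19), within the locus that codes for p16 and ARF. The first was measured on all 24 arrays, from -0.79 to 1.97 with a median of -0.07. Its highest value by far was miR-145 in LNCap (1.97, software error 0.27, 3.92-fold), where the second probe gave 2.14, and the other miR-145 arrays gave 0.57 in PC3 and 0.23 in DU145. With miR-24 in PC3 the probes gave -0.75 and -0.80. The probes differed by a median of 0.05 over the 18 arrays where both were measured, but in FaDu they parted, at -0.79 and 0.20 with si-LAMB3 and at 0.16 and 0.83 with wogonin.

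CDKN2B (p15), the neighbour of CDKN2A on the chromosome, was dim: its probe at chr9:22008979-22009038 (hg19) was measured on 14 arrays, 12 of them in both channels, and on none of the renal arrays. Of the 14 values 4 lay below -0.5 and 5 above 0.5. Genistein gave 1.58 in PC3 and 0.86 in DU145, and miR-24 in PC3 gave -1.65 (software error 0.29, 3.13-fold) where miR-23b gave 0.02 and miR-27b -0.37. The highest value, 2.61 with miR-145 in LNCap, rested on 2 spots that read 0.76 and 4.46, and the 2 spots of genistein in DU145 read 0.36 and 1.36, so neither value is precise.

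CDKN2C (p18) was read at chr1:51439963-51440022 (hg19) on all arrays and passed the limit on 10 of them, 6 lower and 4 higher. Genistein gave the lowest values, -1.80 in PC3 (software error 0.26, 3.47-fold) and -1.68 in DU145 (0.26, 3.21-fold), with spots of an array within an SD of 0.055. miR-145 gave 1.77 in PC3 (3.40-fold) and 2.40 in LNCap (5.26-fold) but 0.20 in DU145. CDKN2C was also lower with si-LAMB3 in SAS (-0.97, against 0.34 in FaDu), with wogonin in SAS (-0.76, against 0.30 in FaDu), with miR-24 in PC3 (-0.66) and with miR-375 in FaDu (-0.51), and higher with miR-27b in PC3 (0.71) and miR-29a in SAS (0.54).

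For the 8 treatments given to more than 1 line, the mean log2 ratio over lines was tested against 0 with limma. P-values were adjusted over the probes tested for each treatment (Benjamini-Hochberg). All treatments shared 1 estimate of spread per probe, so an SE is not the spread of that treatment's own lines. Members passed in 6 of 70 tests (8.57%), against 6.43% of all gene tests, a share near the background. miR-145 raised CCND3 by 1.02 (SE 0.15, n = 3 lines, limma adjusted p = 0.00111), CDKN2C by 1.45 (SE 0.34, adjusted p = 0.0168) and CDKN2A by 0.93 (SE 0.25, adjusted p = 0.0332). These were 3 of 9 members tested, where 6.30% of all genes rose and 6.74% fell, and no member fell. CCND3 passed under each of the 10 alternatives, though median centring could change nothing, since every array's median log2 ratio was 0. Without the LNCap array CDKN2A was at 0.40 (limma adjusted p = 0.209) and CDKN2C at 0.98 (adjusted p = 0.130). Without the PC3 array they were at 1.10 (adjusted p = 0.0911) and 1.30 (adjusted p = 0.158).

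CDK6 did not pass over the 3 miR-145 lines (-0.33, SE 0.35, adjusted p = 0.593), but without the LNCap array it was at -1.08 (SE 0.22, adjusted p = 0.0127). CDKN2B with miR-145 was at 1.01 (adjusted p = 0.110), and without the DU145 array at 1.68 (adjusted p = 0.0116). The LNCap array is the one on which LAMB3 and VIM were high. Among the 116 genes at least 32-fold brighter in both other prostate controls of miR-145 than in the LNCap control, the median log2 ratio on that array was 1.17, a choice that uses the ratio's own denominator and is therefore biased upward. The same choice gave a median of 1.19 over 19 genes in DU145 and 0.68 over 12 genes in PC3. The part of these shifts in the CDK6, CDKN2A, CDKN2B and CDKN2C values of LNCap was not tested.

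Genistein lowered CDKN2C, by a mean of -1.74 (SE 0.42, n = 2 lines, limma adjusted p = 0.0163), the only member of 9 tested to fall where 6.31% of all genes fell and 8.76% rose. With 1 line left, the spread came wholly from the other treatments in the fit, and the lone array was assumed to vary like them. On that footing the values with either line alone were -1.68 (adjusted p = 0.134) and -1.80 (adjusted p = 0.0743). CCND1 (0.58, adjusted p = 0.0647), CCND3 (-0.48, adjusted p = 0.0976) and CDKN2B (1.22, adjusted p = 0.100) did not pass. Wogonin raised CDK4 by 0.64 (SE 0.18, adjusted p = 0.0485; 4.41% of all genes rose) and lowered CDKN1C, at -1.06 (SE 0.27, adjusted p = 0.0384; 2.51% fell), 2 of 10 members tested. The wogonin lines lay apart, at 0.98 in SAS and 0.30 in FaDu for CDK4, and at -1.66 and -0.45 for CDKN1C. The SEs, taken over all treatments, do not show that distance between the lines. CDK4 did not pass where both channels had to be well above background (limma adjusted p = 0.0565). Without a filter on dim probes it did not pass either (adjusted p = 0.0555). Neither gene passed with each array design fitted on its own (limma adjusted p = 0.131 for CDK4 and 0.126 for CDKN1C).

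In the remaining treatments 0 members passed limma at an adjusted p of 0.05. For si-LAMB3, 10 were tested and 14.4% of all genes passed, and 1 member had an unadjusted p under 0.05, CDKN1B at 0.48 (adjusted p = 0.108). For miR-27b, 8 were tested where 1.22% of all genes passed, and 1 member had an unadjusted p under 0.05, again CDKN1B at 0.43 (SE 0.15, positive in 3 of 3 lines, adjusted p = 0.239). For miR-143, si-CAV2 and si-GOLM1, 8 members each were tested with 0 at an unadjusted p under 0.05, and 0.0504%, 0.241% and 0.272% of all genes passed. The 95% intervals of CCND1 were -0.82 to 0.04 with miR-143, -0.35 to 0.50 with si-CAV2 and -0.53 to 0.32 with si-GOLM1, so changes of that size cannot be told from 0 here. CXCL10, miR-23b, miR-24, miR-29a and miR-375 had 1 line and no test.

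**Figure D3:**
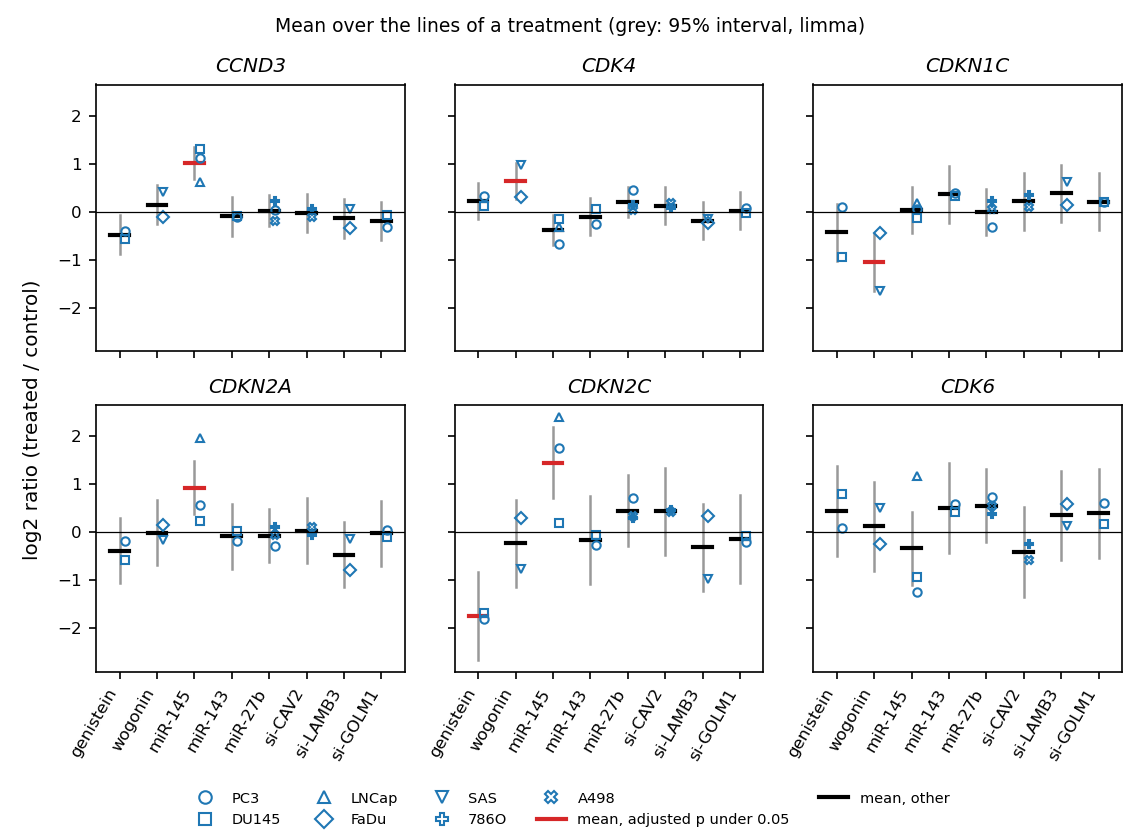
Log2 ratio by line (points) and limma mean with its 95% interval for 6 of the genes under the 8 treatments with more than 1 line; red marks adjusted p under 0.05. The 3 miR-145 points of CCND3 lay between 0.61 and 1.31 and the genistein points of CDKN2C at -1.80 and -1.68, whereas the miR-145 points of CDK6 lay on both sides of 0.

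The array of miR-24 in PC3 moved the largest number of these genes downward. Of 9 measured, 5 lay below -0.5 (CCND1 -0.93, CDKN1C -0.63, CDKN2A -0.75, CDKN2B -1.65, CDKN2C -0.66) and 2 above 0.5 (CDK6 2.12, CDKN1B 0.54), on an array where 25.0% of all genes lay below and 30.0% above. CDK4 was at -0.39 and CCND3 at 0.10. The median of the 9 was -0.63, against 0.06 over all genes on that array. The measured INK4 genes were thus all below -0.5 there. On the arrays of miR-23b and miR-27b, whose control was counted as the same RNA, CDKN2C lay at 0.49 and 0.71, CDKN2A at -0.09 and -0.28, and CDKN2B at 0.02 and -0.37.

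Further down the pathway, 25 of 26 listed cell cycle genes were measured with miR-24, and 2 lay below -0.5 and 15 above 0.5, with a median of 0.68. Of all genes on that array, 25.0% lay below and 30.0% above. The activator E2F1 was at -1.68 and the repressor E2F4 at -1.18, both RB family partners. Higher than 1.0 were CCNA2 (1.88), CCNE1 (1.88) and CCNE2 (1.24), the cyclins that act after the D cyclins, and SKP2 (1.31), the ubiquitin ligase subunit that marks p27 for turnover. Also past 1.0 were the E2F partner TFDP1 (1.64), E2F5 (1.12) and the pocket protein RBL2 (1.67), while RB1 itself was at -0.06. The other PC3 arrays counted as sharing that control were those of miR-27b and miR-23b. With miR-27b the list had 1 lower and 13 higher (median 0.52), against 15.2% and 20.9% of all genes. With miR-23b it had 4 lower and 10 higher (median 0.35), against 14.1% and 18.9%. In FaDu given miR-375 the list had 3 lower and 13 higher (median 0.51), against 26.1% and 25.7%. CCNA2 and TFDP1 passed 1.0 on all 4 of these arrays.

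In SAS given miR-29a, 9 of the 10 genes were measured, 3 below -0.5 and 3 above 0.5, against 13.2% and 15.1% of all genes on that array. Lower were CDK6 (-2.16), CCND2 (-1.07) and CCND1 (-0.63). Higher were CCND3 (0.78), CDKN1C (0.73) and CDKN2C (0.54), with CDK4 at 0.46. So CDK6 and 2 of its cyclin partners lay below the limit and the other kinase and the other D cyclin did not. CDK6 was bright in that control (4.35 above the 75th percentile) and close to the other SAS controls (4.46 and 3.76), unlike CCND2. All 26 listed cell cycle genes were measured there, 2 lower and 2 higher with a median of 0.12, and none passed 1.0.

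The other arrays with several members past the limit were genistein in DU145 (4 lower and 4 higher of 10, or 4 and 3 of the 9 detected in both channels, without CCND2, against 17.1% and 18.2% of all genes), miR-145 in PC3 (2 and 4 of 9, against 19.4% and 17.1%), miR-145 in LNCap (0 and 5 of 9, against 11.7% and 13.6%), miR-375 in FaDu (3 and 2 of 10, against 26.1% and 25.7%) and wogonin in SAS (3 and 3 of 10, against 17.0% and 20.3%). In PC3, genistein gave 1 lower and 1 higher of 9, against 16.8% and 24.0%. On the 8 arrays of slide 3, at most 1 member per array passed, where between 2.29% and 7.87% of all genes lay past the limit in a given direction.

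Over the treatments with more than 1 line, limma called 10 of 208 tests of the 26 listed cell cycle genes (4.81%, against 6.43% of all gene tests), 5 higher and 5 lower. Genistein raised CDKN1A (p21), the CIP/KIP inhibitor induced by p53, by 2.41 (SE 0.58, 3.64 in PC3 and 1.18 in DU145, adjusted p = 0.0164) and lowered SKP2, at -1.10 (adjusted p = 0.0360), beside the fall of CDKN2C. miR-145 lowered CCNH, the cyclin of the CDK-activating kinase, at -0.54 (adjusted p = 0.0228). miR-27b raised E2F2 by 1.32 (adjusted p = 0.0416; 2.43 in PC3, 1.05 in 786O and 0.47 in A498). The siRNA against LAMB3 lowered E2F5 (-2.21, adjusted p = 0.000163) and E2F7 (-1.44, adjusted p = 0.00207) and raised E2F6 (0.73, adjusted p = 0.0204), with no member of the cyclin D group passing. Wogonin raised E2F3 (0.74, adjusted p = 0.0140) and CCNE1 (0.69, adjusted p = 0.0332) and lowered the E2F partner TFDP2 (-0.74, adjusted p = 0.0219). E2F2 was past 1.0 in both lines given si-CAV2 (1.03 and 1.06) without passing the test.

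The control channels gave the levels of these genes in the 7 lines. Levels are log2 control signal minus the array's 75th percentile, are compared only between arrays of one design, and give one probe in different lines. limma called 30 of 82 member differences between pairs of lines (36.6%, Benjamini-Hochberg over all probes tested for a pair), against 30.4% of all gene differences. Without CCND2 the count was 26 of 77 (33.8%). Of the 10 genes, 7 passed in at least 1 pair. CCND1, CDK4 and CDKN2B passed in none. On design 1 the members called were 2 of 9 between PC3 and DU145 (27.0% of all genes), 3 of 10 between PC3 and FaDu (43.7%), 4 of 10 between PC3 and SAS (41.8%), 4 of 10 between DU145 and FaDu (28.0%), 4 of 10 between DU145 and SAS (28.6%) and 4 of 9 between FaDu and SAS (27.8%). On design 2 they were 3 of 8 between DU145 and 786O (28.0%), 2 of 8 between DU145 and PC3 (21.1%) and 4 of 8 between PC3 and 786O (29.5%). The PC3 controls of design 2 are the slide 3 ones with low VIM and high CDH1, KRT6A and KRT14, and the part of that difference in the PC3 values of design 2 was not tested. CDK4 lay between 2.79 and 4.34 in every control of every line. CCND1 lay between 0.77 and 3.23.

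CCND2 was detected in controls of FaDu and SAS alone. It was at 2.89 ± 0.76 (SD, n = 3 controls) in FaDu and 1.41 ± 1.33 (n = 3) in SAS and was not well above background in any control of the prostate or renal lines. FaDu was at least 387-fold above PC3 and at least 694-fold above DU145, and SAS at least 139-fold and 250-fold above them. Without the miR-29a control of SAS the differences from SAS were -9.12 for PC3 and -9.95 for DU145 on the log2 scale, against -8.35 and -9.19 with it. CCND2 passed the filter only through FaDu and SAS, where it is high, so its 4 calls had to differ and add no support. Under normexp background correction, which lifts dim signals, the same differences were -5.28 and -5.37 on the log2 scale for PC3 and DU145 against FaDu, and -3.95 and -4.04 against SAS.

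CDK6 was ordered on design 1 with SAS at 4.19 ± 0.37 (n = 3), FaDu at 2.23 ± 0.21 (n = 3), PC3 at 1.36 ± 0.73 (n = 3), DU145 at 0.11 ± 1.48 (n = 2) and LNCap at -3.93 (n = 1), with 786O at 4.71 and A498 at 2.70 (n = 1 each). SAS was 7.12-fold above PC3 (adjusted p = 0.00189), 3.91-fold above FaDu (adjusted p = 0.0199) and 17.0-fold above DU145 (adjusted p = 0.000713), and FaDu 4.34-fold above DU145 (adjusted p = 0.0238). The DU145 level rested on 2 controls that lay apart: DU145 minus SAS was -4.08 on the log2 scale, but -3.03 (adjusted p = 0.00508) without the genistein control of DU145 and -5.13 (adjusted p = 0.000267) without its miR-145 control, and DU145 minus FaDu was -1.07 and -3.17. The differences of PC3 from FaDu and from DU145 did not pass. On design 2, 786O stood 7.80-fold above DU145 (adjusted p = 0.00377) and 4.66-fold above PC3 (adjusted p = 0.00960). SAS, the only line given miR-29a, was one of high CDK6 signal, and LNCap, with the opposite miR-145 ratio, had the lowest. The control signal is also the denominator of its array's ratio, so level and ratio share any error in that signal. Levels and ratios are therefore not independent here, and their link was not tested.

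CDKN2A was highest in DU145, at 6.11 ± 0.45 (n = 2) on design 1 and 6.40 ± 0.03 (n = 2) on design 2. SAS (4.76 ± 0.34), PC3 (4.08 ± 0.57), FaDu (3.51 ± 0.46) and LNCap (2.73) followed, and the renal lines were lowest, A498 at -0.25 and 786O at -1.13. DU145 was 4.10-fold above PC3 (adjusted p = 0.00479), 135-fold above 786O on design 2 (adjusted p = 7.6e-05), 2.56-fold above SAS (adjusted p = 0.0315) and 6.05-fold above FaDu (adjusted p = 0.00116). By the second probe the renal lines were not well above background, DU145 was at least 530-fold and PC3 at least 64.5-fold above 786O, and FaDu parted from the other lines. FaDu was 2.37-fold below SAS by the first probe (adjusted p = 0.0285) and 63.4-fold below it by the second (adjusted p = 2.1e-06). FaDu was also the line in which the probes gave different responses to si-LAMB3 and wogonin.

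CDKN2C was higher in PC3 (2.11 ± 0.27, n = 3) and DU145 (1.58 ± 0.48, n = 2) than in FaDu (0.59 ± 0.26, n = 3) and lowest in SAS (-0.97 ± 0.17, n = 3), 8.48-fold below PC3 (adjusted p = 1.1e-05). On design 2, 786O (3.56 ± 0.53, n = 3) was above DU145 (3.25-fold, adjusted p = 0.0144) and PC3 (2.57-fold, adjusted p = 0.0278). CDKN2C and CDK6 thus had opposite orders between PC3 and SAS, and the same order between 786O and both prostate lines of design 2. CDKN2B was not well above background in any renal control nor in the PC3 controls of slide 3, was highest in PC3 on design 1 (-3.29 ± 1.31, n = 3), and passed in no pair tested.

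CDKN1B was highest in FaDu (1.30 ± 0.12, n = 3), 3.90-fold above PC3 (adjusted p = 0.000491) and 2.97-fold above SAS (adjusted p = 0.00333), and its other probe gave 4.30-fold and 3.29-fold. It was 2.53-fold lower in PC3 than in 786O (adjusted p = 0.0108) and 1.99-fold lower than in DU145 (adjusted p = 0.050, past the threshold under 5 of 11 alternatives). CDKN1C varied among controls of one line, at 2.07 and -1.34 in the DU145 controls of genistein and miR-145, and only its difference between PC3 and SAS passed (11.8-fold, adjusted p = 0.0101). CCND3 was 1.96-fold lower in DU145 than in PC3 on design 2 (limma adjusted p = 0.0228, past the threshold under 6 of 10 alternatives), its only call. Slide as a block and separate counting of the shared PC3 control, among those alternatives, left the fit of design 2 unchanged.

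The lines were spread over slides. On slide 2, which held FaDu and SAS together, the difference of FaDu minus SAS was -2.09 for CDK6, 1.43 for CDKN2C and -6.04 for the second probe of CDKN2A, and CDKN1B was higher in FaDu. On slide 1, PC3 minus DU145 was -2.25 for CDKN2A and -1.27 for CDKN1B. These keep the signs of the pooled differences. Slide as a block could be fitted on design 1 alone. All arrays of design 2 lay on slide 3, so its calls could not be lost this way. Of the 30 calls, 4 were lost, all of them on design 1. These were CDK6 and CDKN2C between DU145 and FaDu, CDKN2A between FaDu and SAS, and CDKN1C between PC3 and SAS. The calls that were kept include those of CCND2, which add no support.

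Leaving out 1 control left 19 of the 30 calls in place whichever control it was, and 11 were lost for at least 1 control. The 19 include the CCND2 calls, which had to differ and add no support. All 11 lost calls were among the 26 of the other members. Without the genistein control of DU145 the DU145 minus FaDu difference was -1.07 for CDK6 and 0.65 for CDKN2C, the DU145 minus SAS difference of CDKN2A was 1.04, and the PC3 minus DU145 difference of CDKN1B was -0.67, none of them past the threshold. CDK6 and CDKN2C between DU145 and FaDu were also lost without the wogonin control of FaDu (-2.16 and 0.87), CDK6 without the miR-375 control of FaDu (-2.00) and CDKN2C without its si-LAMB3 control (0.97). CDKN2A between DU145 and SAS was lost without any 1 SAS control (1.17 to 1.49), and CDKN1B between PC3 and DU145 also without the genistein control of PC3 (-0.87) or either miR-145 control (-0.84 and -1.32).

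Between FaDu and SAS, CDK6 was lost without the si-LAMB3 or wogonin control of FaDu or the si-LAMB3 or miR-29a control of SAS (-1.92 to -1.83), and CDKN2A without the miR-375 or wogonin control of FaDu or the si-LAMB3 or wogonin control of SAS (-1.26 to -1.0). On design 2, where PC3 and DU145 had 2 controls each, leaving either one out ended the CCND3 call between them (-1.03 to -0.91), and the calls against 786O of CDK6 and CDKN1B in PC3 and of CDKN2C in DU145 and PC3. CDKN2C between PC3 and 786O was also lost without the CXCL10 12 h control (-1.14).

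**Figure D4:**
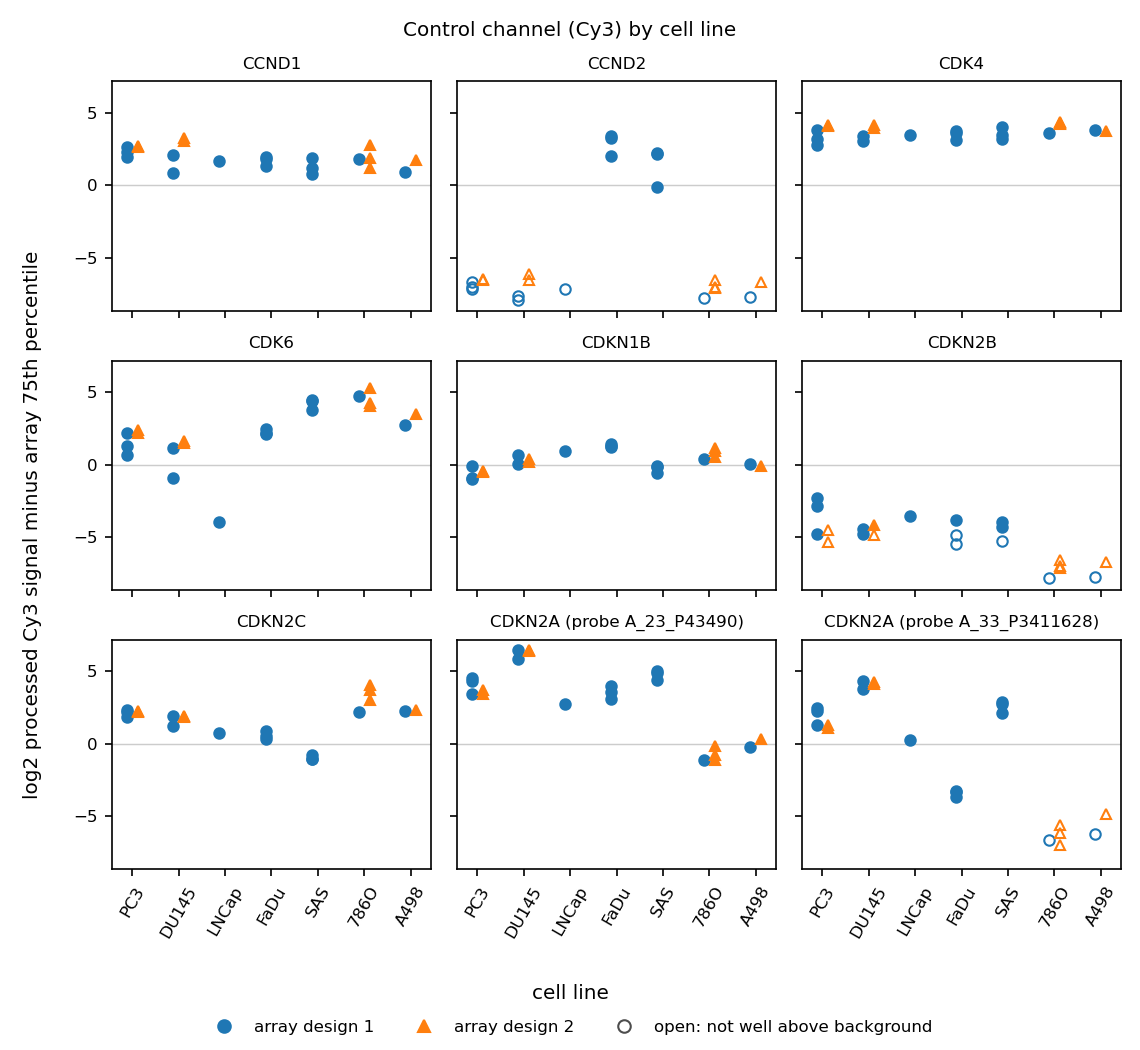
Control-channel level (log2 Cy3 signal minus the array's 75th percentile) of the genes in each line; circles are design 1, triangles design 2, and open symbols are not well above background. CCND2 is detected in FaDu and SAS alone, CDK4 lies between 2.79 and 4.34 in all lines, CDK6 is lowest in LNCap at -3.93, and the second CDKN2A probe lies at -3.41 ± 0.23 (SD, n = 3) in FaDu and 2.57 ± 0.39 in SAS.

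For each gene measured on all arrays, the genes whose log2 ratios were most alike over the 24 arrays were sought among 11456 genes. The arrays share slides, and some were counted as sharing a control RNA, so Pearson's r is given as a description. CDK4 was closest to CAD (r = 0.92), the enzyme that starts pyrimidine synthesis, and MRPL34 was also near it (0.87). CDKN2C was closest to GLCCI1 (0.92), STIM2 (0.84) and IFITM1 (0.82), CDKN2A to UBE3B (0.89), ANKS1A (0.86) and RGS2 (0.86), and CDKN1C to DDAH2 (0.87), PGPEP1 (0.86) and FCGRT (0.84). CCND3 was closest to MLKL (0.85), PRKD2 (0.78) and S1PR2 (0.76), and CDK6 to C16orf72 (0.80), LUC7L2 (0.79) and RASA3 (0.79). CDKN1B followed BRD3 (0.81), UFC1 (0.79) and CD14 (0.77), and CCND1 ZNF616 (0.80), PRMT6 (0.75) and STX6 (0.74). No gene of the group was among the 3 nearest of another.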

How the data were processed

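Gene expression was measured on 24 two-colour Agilent arrays of 2 designs (16 arrays on slides 1 and 2, 8 on slide 3), with 1 array per line and treatment and no dye swap. The authors scanned the arrays and, per the file headers, Agilent Feature Extraction 10.7.3.1 subtracted background, normalised dyes and wrote the deposited log10 ratio of Cy5 over Cy3 and the processed signal intensity of each spot. The deposited series table held the same log10 ratios. Here the log10 ratio was multiplied by 3.32 to give log2, control and outlier spots were dropped, spots of a probe were averaged, and the brightest probe stood for a gene unless the other is named. A value was used where at least 1 channel was well above background. Probe positions are hg19, as the files give them, and were not assigned to exons or UTRs.

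Mean ratios by treatment were tested with limma 3.58.1 in R 4.3.3 (lmFit, eBayes, Benjamini-Hochberg over all probes tested for a treatment), with all arrays in the same fit. Control-channel levels (log2 processed Cy3 intensity minus the array's 75th percentile) were tested between lines within a design, for lines with at least 2 control RNAs. The 3 PC3 controls of miR-23b, miR-24 and miR-27b correlated at 0.995 over probes, against 0.910 to 0.972 for other PC3 pairs except miR-143 with si-GOLM1 (0.989), and were counted as 1 control RNA. The genes named were the 10 members, listed cell cycle genes past 1.0 in both lines of a treatment or with miR-24 or miR-29a or called by limma, and the 3 genes most alike in ratio to each member. A called fold against a signal not well above background is a bound, from the lowest signal of detected probes on the arrays. Members and lists were chosen with earlier results of these data known. Tables were made with Python 3.11.15, numpy 2.4.6 and pandas 2.3.3, and the fits were tested on simulated data. P-values measure only the spread between these arrays. Some listed markers and a gene like a member in ratio are not reported here.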

Additional observations from a re-analysis of the deposited data

Results flagged for a closer look

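CDK6 moved in opposite directions under the same microRNA. After miR-145 transfection the signal was lower than control in both PC3 (log2 ratio -1.24) and DU145 (-0.93), and higher in LNCap (1.17). With 1 array per line, this difference between lines was not tested.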

How the results depend on the processing

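A limit of 1.0 in place of 0.5 left 10 member values lower and 13 higher of 27 and 37, and over the other settings the counts were 22 to 35 lower and 27 to 38 higher. Fitting each array design on its own left 1 of the 6 treatment calls, CCND3 with miR-145, and the other settings gave 5 to 8 calls. For these 6 that fit had fewer arrays, none of them of slide 3, and the SE of each was larger. It was 0.50 against 0.42 for CDKN2C with genistein and 0.32 against 0.27 for CDKN1C with wogonin. The main calls were thus made with a spread that includes the slide 3 arrays. The fit by design also differed in the probes fitted and adjusted over. Which of these differences ended the calls was not tested. Leaving out 1 line of a treatment gave 4 to 9 calls. A fit on normexp-corrected signals, or with an intensity trend, called CCND1 with genistein (0.57, adjusted p = 0.0332, and 0.58, adjusted p = 0.0371). Control-level calls numbered 25 to 36 under all settings. Of 384 recomputed single-array values 47 moved beyond the software error and none changed sign. Among the 384, 64 from median centring and 64 from the deposited series table could not move. Every array's median log2 ratio was already 0, and that table held the same ratios. CDKN2B moved most, from 2.61 to 1.24 in LNCap under normexp. Treated and control RNA of a line were paired on each array, so each log2 ratio is a paired value. No further pairing was possible because the labels give no replicate numbers and each treatment has 1 array per line. Slide as a block could not be fitted for treatments, since nearly every treatment lay on 1 slide. Without dye swaps, a dye effect of a probe and a treatment effect cannot be told apart: subtracting each probe's mean over other treatments gave 35 lower and 27 higher values. The number of arrays limits precision, and dim probes (CCND2 outside FaDu and SAS, CDKN2B) limit it further.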
